A study of Mus musculus with 15 samples.

Results

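Medulloblastoma cells (MB) were compared with granule neuron precursors of the first postnatal day (P1) by RNA-seq of poly(A) RNA from mouse cerebellum. The 6 libraries were taken by their titles, 3 of MB and 3 of P1, out of 15 in the series. The other libraries, used in the fit and for some descriptions, were titled as granule neuron precursors of other ages. In group names, E stands before the embryonic day and P before the postnatal day. Per the labels, the P1 cells came from wild type (WT) mice, and the MB cells came from mice labelled Ptch1 heterozygous, with no age given and no statement of which part of the gene the allele lacks. Cells of both groups were purified by Percoll fractionation and lysed at once in Trizol, so a fraction of the cerebellum or tumour was sequenced and not a sorted cell type. The labels do not say whether the replicates are separate animals, tumours or pools. The p-values therefore measure only the spread between libraries within groups, estimated over all 15. Genotype, age and disease change together between the groups and cannot be told apart.

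Granule neuron precursors divide in the outer layer of the young cerebellum while they receive Sonic hedgehog, a secreted protein made by Purkinje cells. Patched1, the product of Ptch1, is the receptor that holds the signal transducer Smoothened in check. When the ligand binds, or when Ptch1 is lost, Gli transcription factors switch on growth genes, and tumours of the granule lineage can form in mice that carry 1 working copy of Ptch1.

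Libraries held between 21550266 and 42864857 counts in genes. A gene was called when edgeR's quasi-likelihood test, fitted to all 15 libraries and adjusted by Benjamini-Hochberg over 15259 genes, gave a false discovery rate (FDR) under 0.05. Autosomal genes alone are reported, 14446 of those tested. Of these, 2391 were called higher in MB (16.6% of those tested) and 3276 lower (22.7%), the background against which the counts of each gene list are read. Lists and their members were chosen with earlier results of these data known, so list counts and medians are descriptions and not tests. At least 4-fold, 1850 fell and 331 rose. The median log2 fold change over all autosomal genes tested was 0.06.

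MB replicate 1 stood apart from its replicates, and P1 replicate 3 lay nearer to P14 than to its own group. P1 replicate 3 differed from the mean of the P14 libraries by a root mean square of 0.448 on the log2 scale, where P1 replicates 1 and 2 differed by 1.02 and 0.838. From the other P1 libraries it differed by 0.592, about as much as P1 replicate 1 did, at 0.594. Without it, 1763 genes were called higher (12% of 14673) and 2850 lower (19.4%), and 1627 and 2799 of the original calls were kept, with no change of sign. MB replicate 1 lay 0.991 and 1.03 from the other MB libraries, which lay 0.482 from each other. Libraries of the series were also split into 2 sets by how their reads appeared to have been assigned to genes. MB replicate 1 was placed in the other set from the remaining 5. The sample table names no such sets, and whether the counting settings differed is not known. Of 9946 genes compared, 1 was nearly absent from the gene table of MB replicate 1 alone (with no more than 1% of what its transcript table held). The set of the 5 also held E15.5 replicate 2 and the P14 libraries. A fit to that set, without MB replicate 1, called 3747 genes higher and 4011 lower. List counts without P1 replicate 3 are given for each list, and those without another library where they differ by over 1.5 times.

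Markers of other cell types differed strongly between the groups, as the plot of summed marker levels by library shows. Values are CPM, read counts divided by library size. Endothelial markers such as Kdr, Cdh5 and Tek summed to 29.1 to 43.1 CPM in MB and 434 to 670 CPM in P1, and all 9 were called lower. The 9 pericyte and fibroblast markers, among them the collagens Col1a1 and Col3a1, summed to 26.8 to 37.4 CPM in MB and 704 to 1030 CPM in P1, again with 9 of 9 called lower. The libraries of each group did not overlap in either sum.

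GABAergic interneuron markers summed to 5.04 to 8.33 CPM in MB against 176 to 229 CPM in P1, with 6 of 7 called lower and Pvalb not called. Of 8 Purkinje cell markers, 5 were called lower, with sums of 84.2 to 167 CPM in MB and 256 to 398 CPM in P1, and Foxp2, a transcription factor gene, was called higher at a log2 fold change of 1.07 (FDR 0.00669; 0.12 without P1 replicate 3 and MB replicate 1). Skor2, which marks Purkinje cells, had 0 counts in all MB libraries and 355 in P1, at least 143-fold lower in MB. Choroid plexus markers summed to 36.6 to 193 CPM in MB and 303 to 10500 CPM in P1, mostly Ttr, and 6 of 7 were called lower.

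Oligodendrocyte lineage markers summed to 704 to 982 CPM in MB and 652, 875 and 2360 CPM in P1 replicates 1 to 3. Mbp, a myelin protein gene, stood at 47.5, 36.5 and 28.4 CPM in MB and at 41.7, 130 and 645 CPM in P1. P1 replicate 3 was the highest P1 library for 9 of the 12 markers, of which 7 were called lower and Olig2 higher (FDR 0.0265). Olig2 lost its call without P1 replicate 2 or 3 (FDR 0.0824 and 0.0841) and without MB replicate 2 or 3 (0.0972 and 0.11). Astroglial markers summed to 1690 to 2170 CPM in MB and 3130 to 4760 CPM in P1, with 7 of 10 called lower. S100b and Gfap, genes of mature astrocytes, were called higher, at log2 fold changes of 2.71 and 1.40, with 1 of the list called higher without MB replicate 1, P1 replicate 1 or P1 replicate 2. Gfap lost its call without MB replicate 1 (FDR 0.14), P1 replicate 1 (0.0858) or P1 replicate 2 (0.106). Erythroid markers summed to 0.357 to 5.48 CPM in MB and 69.8 to 116 CPM in P1, and all 4 tested were called lower.

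Microglia and macrophage markers went in the opposite direction, from 107 to 178 CPM in P1 to 594, 259 and 222 CPM in MB replicates 1 to 3. MB replicate 1 was the highest tumour for all 14 markers, of which 9 were called higher and none lower. Without it 5 were called higher and 1 lower. C1qb, a complement gene of phagocytes, stood at 127, 45.7 and 40.9 CPM in MB and at 10.3, 12.3 and 13.2 CPM in P1. P2ry12 and Tmem119, markers of resting microglia, were not called, with log2 fold changes of -0.81 and -0.43, and P2ry12 was called lower without MB replicate 1 (-2.13, FDR 0.00992). Lymphocyte markers summed to 10.2, 3.13 and 3.6 CPM in MB and 2.15 to 2.44 CPM in P1, and of the 3 with enough counts to test 2 were called higher. Without MB replicate 1, the highest tumour for all 3, 1 was called higher and 1 lower, and without P1 replicate 2, 1 was called higher. The 8 markers of granule neuron precursors summed to 3510 to 4740 CPM in MB and 3470 to 4390 CPM in P1, so ranges overlapped, and 3 members were called in each direction. Without P1 replicate 3, 7 microglia and macrophage markers and 3 astroglial markers were called higher and no oligodendrocyte marker was, and 5 choroid plexus and 2 granule neuron precursor markers were called lower. The other counts in these 11 lists were as with all libraries. No marker in these lists was at 0 in all 6 libraries. In bulk libraries, fewer cells of a type and less RNA per cell cannot be told apart, and the part that other cells have in the results that follow was not tested.

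**Figure D1:**
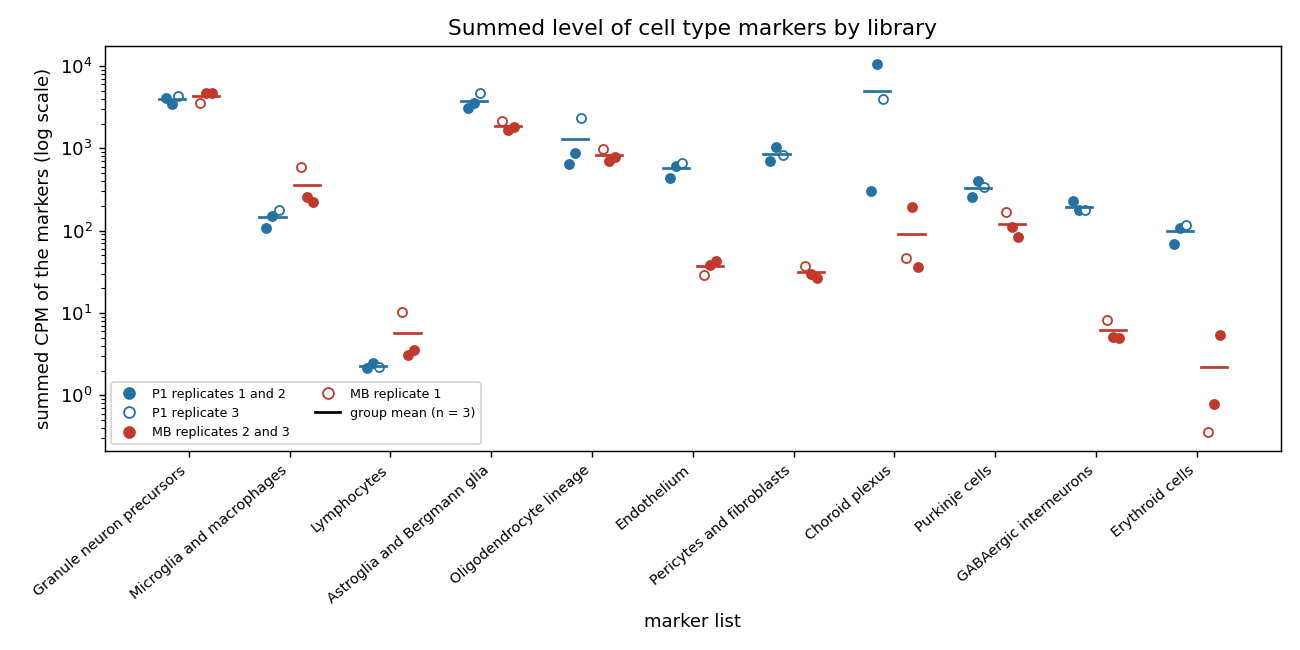
Summed CPM of the markers of each cell type, on a log axis, in the 3 P1 (blue) and 3 MB (red) libraries, with bars at group means and open symbols for P1 replicate 3 and MB replicate 1. Endothelial markers sit at 29.1 to 43.1 CPM in MB and 434 to 670 CPM in P1, while granule neuron precursor markers overlap.

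Receptors of the hedgehog pathway did not move as a block. Ptch1 (ENSMUSG00000021466, chromosome 13, 63612841 to 63666828 in mm9, the build of all gene positions here) stood at 202, 341 and 349 CPM in MB and at 319, 273 and 242 CPM in P1. The ranges overlapped and the log2 fold change was 0.10 (SE 0.28, FDR 0.81). Because the labels do not say which exons the allele lacks, this level does not check the genotype label. Of 11 receptors and modulators tested, 4 were called higher (36.4%, against 16.6% of all genes) and 2 lower (18.2%, against 22.7%). Without P1 replicate 3, 1 was called higher, where 12% of all genes were, and 2 lower, and without MB replicate 2, 2 were called higher.

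Boc and Cdon, which encode related co-receptors for Sonic hedgehog, went in opposite directions. Boc stood at 458, 575 and 535 CPM in MB and at 241, 206 and 146 CPM in P1, so that the groups did not overlap and the gene was 2.64-fold higher in MB (log2 SE 0.19, FDR 3.93e-05; 1.23 on the log2 scale without P1 replicate 3). Cdon held 1.19, 0.562 and 1.08 CPM in MB and 13.6, 21.8 and 19.6 CPM in P1, 19.8-fold lower in MB (log2 SE 0.36, FDR 4.22e-07; -4.26 without P1 replicate 3). Shh, the ligand itself, had 5 counts over the MB libraries and 110 in P1, a ratio of 26.5 (95% counting interval 11 to 83.2).

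Hhip, a decoy receptor gene and a hedgehog target, was called higher at a log2 fold change of 1.19 (FDR 0.012), had an FDR of 0.0544 without P1 replicate 3 and of 0.0924 without MB replicate 2, and was lowest among tumours in MB replicate 1, at 17.5 CPM against 63.2 and 43.7 CPM. Smo, the Smoothened gene, was called at 0.74 (FDR 0.0113) with an FDR of 0.0596 without P1 replicate 3. Gas1, another co-receptor, was not called at 0.75 (FDR 0.11) and was called without MB replicate 1 (1.16, FDR 0.000669).

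Gli1 and Gli2, the activators among the Gli factors, were higher in MB, and Gli3, the source of the main Gli repressor, was lower. Gli1 (ENSMUSG00000025407, chromosome 10, 126766945 to 126778645), itself a target of the pathway, stood at 208, 781 and 651 CPM in MB and at 170, 126 and 79.9 CPM in P1. All tumours lay above all P1 libraries, MB replicate 1 by the least, and Gli1 was 4.36-fold higher (log2 SE 0.38, FDR 0.00044; log2 1.88 without P1 replicate 3, 2.51 without MB replicate 1). Gli2 was 2.27-fold higher (FDR 0.00915; FDR 0.0482 without P1 replicate 3).

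Gli3 stood at 6.94, 1.93 and 2.6 CPM in MB and at 58, 52.7 and 41 CPM in P1, 13.3-fold lower in MB (log2 SE 0.44, FDR 9.13e-06). Of the 10 Gli factors and regulators, 3 were called higher (30%, against 16.6% of all genes) and 2 lower (20%, against 22.7%). The counts were the same without P1 replicate 3. Sufu, which holds Gli proteins back, was the third that rose, at a log2 fold change of 0.85 (FDR 0.0119; 0.0536 without MB replicate 2), and Spop, an adaptor for Gli degradation, the other that fell, at -0.58 (FDR 0.00641). The levels of these genes by library are drawn in the plot of hedgehog genes.

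**Figure D2:**
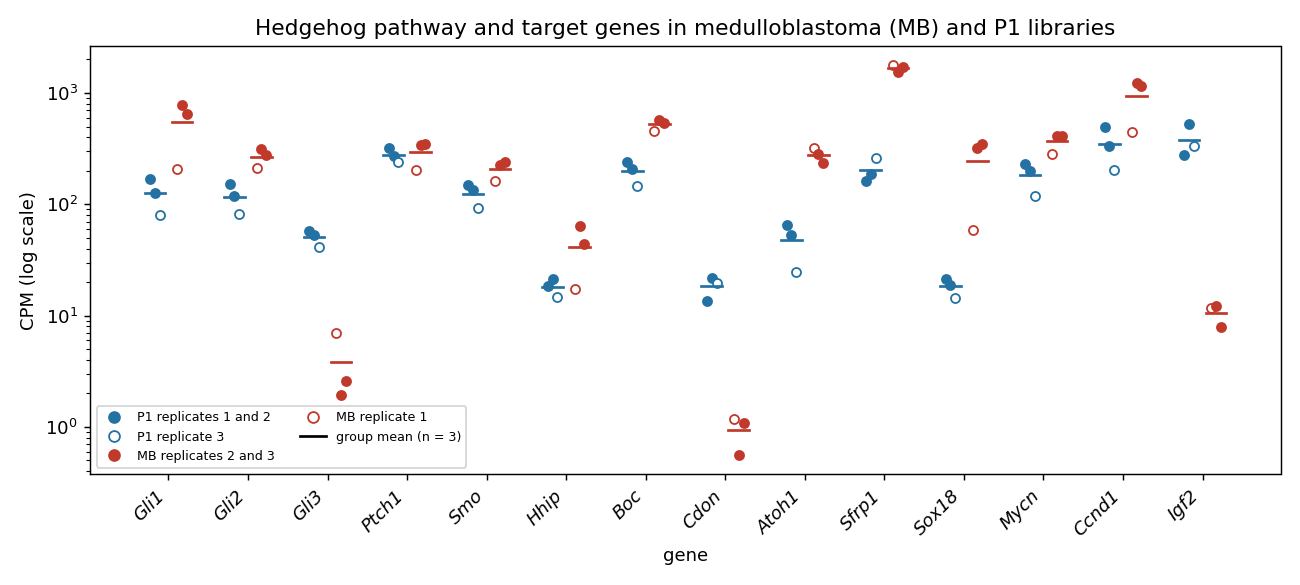
CPM of 14 hedgehog pathway and target genes, on a log axis, in the 3 P1 (blue) and 3 MB (red) libraries, with bars at group means and open symbols for P1 replicate 3 and MB replicate 1. Gli1 lies between 208 and 781 CPM in MB and between 79.9 and 170 CPM in P1, and Gli3 lies the other way round.

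Target genes of the pathway in granule precursors were mostly higher in MB. Of 13 tested, 8 were called higher (61.5%, against 16.6% of all genes) and 2 lower (15.4%, against 22.7%), with a median log2 fold change of 1.01. Without P1 replicate 3, 7 were called higher and 2 lower, where 12% and 19.4% of all genes were. Gli1, Hhip and Ptch1 are counted in the lists above and not in this one. Sfrp1, which encodes a secreted Wnt-binding protein, stood at 1770, 1530 and 1700 CPM in MB and at 163, 189 and 261 CPM in P1, 8.14-fold higher with no overlap (log2 SE 0.22, FDR 8.51e-08). Atoh1 (ENSMUSG00000073043, chromosome 6, 64679140 to 64681227), the transcription factor that defines the granule lineage, stood at 322, 282 and 236 CPM in MB and at 65.4, 53.3 and 24.5 CPM in P1, 5.86-fold higher (log2 SE 0.29, FDR 6.94e-06; log2 2.24 without P1 replicate 3). P1 replicate 3 was the lowest library for Atoh1, and the tumours lay far above every P1 library.

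Sox18, a SOX transcription factor gene, stood at 59.1, 323 and 347 CPM in MB and at 21.5, 19 and 14.5 CPM in P1, and was 13.3-fold higher (FDR 8e-05). Sox18 is also known from endothelium, whose 9 markers were all lower in MB. Ccnd1, the D cyclin driven by hedgehog signalling, stood at 448, 1220 and 1150 CPM in MB and at 496, 337 and 203 CPM in P1. The groups overlapped at MB replicate 1, and Ccnd1 was called at a log2 fold change of 1.45 (FDR 0.00382; 1.18 and FDR 0.0202 without P1 replicate 3). Mycn rose at 1.01 (FDR 0.00221), with 286, 412 and 412 CPM in MB and 232, 200 and 118 CPM in P1. Ccnd2 was called at 0.73 (FDR 0.0315), with FDRs of 0.0528 and 0.121 without P1 replicate 2 or 3 and of 0.0746 and 0.0689 without MB replicate 1 or 3.

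Igf2, a growth factor gene listed among hedgehog targets, went against the list. It held 11.6, 12.2 and 7.93 CPM in MB and 276, 524 and 335 CPM in P1, 35.7-fold lower in MB (log2 SE 0.33, FDR 3.11e-08). Fibroblasts are known to express Igf2, and the pericyte and fibroblast markers fell in the same libraries from at least 704 CPM to at most 37.4 CPM. Their part in the fall of Igf2 was not tested. Prdm1 was the other target that fell, at -1.77 (FDR 0.000486).

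Myc family genes were higher in MB or not called. Of 11 members of the Myc and Mxd network tested, 6 were called higher (54.5%, against 16.6% of all genes) and none lower. The counts were the same without P1 replicate 3. Myc (ENSMUSG00000022346, chromosome 15, 61816946 to 61821905) stood at 41.3, 207 and 165 CPM in MB and at 17.3, 17.4 and 14.1 CPM in P1, 8.47-fold higher (log2 SE 0.41, FDR 2.67e-05). MB replicate 1 again lay nearest to P1, though above it. Mycl rose at a log2 fold change of 1.78 (FDR 3.65e-06), with MB replicate 1 the highest tumour at 480 CPM. Of the antagonists and partners, Mxi1 rose at 0.94 (FDR 0.000231) and Max, the shared partner of the family, at 0.77 (FDR 0.0118; 0.0566 without MB replicate 1).

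Some genes that drive the G1 phase rose, and so did most of those that hold it back. Of 14 cyclins, cyclin-dependent kinases and their inhibitors tested, 8 were called higher (57.1%, against 16.6% of all genes) and 1 lower (7.14%, against 22.7%). Without P1 replicate 3 the counts were 7 and 1. Cdk6, the kinase partner of D cyclins, stood at 370, 211 and 253 CPM in MB and at 56.7, 47.5 and 27.5 CPM in P1, 6.34-fold higher (log2 SE 0.39, FDR 6.31e-05). Cdk4, its close relative, was not called at 0.53 (FDR 0.123; 0.0343 without MB replicate 1).

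Most inhibitors of these kinases in the list were called higher in MB. Cdkn2a (ENSMUSG00000044303, chromosome 4, 88920377 to 88928096), an inhibitor locus that is silent in most young tissue, stood at 18.4, 20.3 and 8.49 CPM in MB and at 0.172, 0.116 and 0.0754 CPM in P1. Its 9 counts in P1 against 1510 in MB gave a ratio of 139 (95% counting interval 73.2 to 305; FDR 1.09e-06). Cdkn1a, Cdkn2b, Cdkn2c and Cdkn1b also rose, at log2 fold changes of 1.90, 1.67, 1.46 and 1.00, and each kept its call without P1 replicate 3. Cdkn2b had an FDR of 0.0502 without MB replicate 2. Cdkn1c fell, from 66.6, 56.1 and 31.5 CPM in P1 to 14.4, 12.4 and 13.7 CPM in MB (-1.93, FDR 9.81e-05).

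Among the E2f and Rb genes, which couple those kinases to S phase, 5 of 13 were called higher (38.5%, against 16.6% of all genes). In the other direction, 1 was called lower (7.69%, against 22.7%). Without P1 replicate 3, 3 were called higher and none lower. The call lower was also lost without any 1 of P1 replicates 1 and 2 and MB replicates 2 and 3. E2f8 rose most, at a log2 fold change of 1.15 (FDR 0.00125). E2f1 was not called at 0.66 (FDR 0.105), with 82.9 CPM in MB replicate 1 and 196 and 264 CPM in the other tumours, and was called without MB replicate 1 (1.01, FDR 0.0018). Rb1 was not called at 0.60 (FDR 0.0505; 0.0165 without MB replicate 3).

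DNA replication genes were mostly higher in MB. Of 28 tested, 18 were called higher (64.3%, against 16.6% of all genes) and none lower, with a median log2 fold change of 0.87, and 14 without P1 replicate 3, with a median of 0.67. All 28 fitted values lay above 0 with all libraries. Mcm2, a subunit of the helicase that opens replication origins, stood at 540, 616 and 488 CPM in MB and at 237, 212 and 132 CPM in P1, 2.83-fold higher with no overlap (log2 SE 0.21, FDR 4.55e-05). Cdt1, which loads that helicase, rose at 1.27 (FDR 0.000736), and Pold1, the catalytic subunit of a replicative polymerase, at 1.21 (FDR 0.000651).

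The nucleotide synthesis genes of the same list did not pass the test. Rrm2 (0.11, FDR 0.668), Tyms (0.06, FDR 0.88) and Rrm1 (0.36, FDR 0.213) were not called, and without P1 replicate 3 Rrm2 and Tyms lay at -0.07 and -0.13. For Rrm2 the libraries stood at 229, 206 and 219 CPM in MB and at 263, 195 and 147 CPM in P1, so the groups overlapped. P1 replicate 3 was the lowest P1 library for all 28 replication genes, and MB replicate 1 was the highest tumour for 15 and the lowest for 9 of them.

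Promoters of the replication genes were searched for letters that the E2F factors are known to bind, because many of these genes were called in the same direction. The windows are those of RefSeq (build GRCm38.p6), 250 bases before to 50 after each gene's start. TTTCCCGC or TTTGGCGC, on either strand, stood in the windows of 7 of 16 called replication genes with a window, in 2 of 8 that were not called, and in 1.80% of all 25748 autosomal genes with a window. These strings do not overlap other motifs searched, and a match is a description of the letters and not a binding site. The 250 bases before the start are shown for 4 called genes with a match there, 5′ to 3′ on the strand of the gene, with the matching letters in capitals.
Mcm6, on chr1:128359706-128359955, minus strand: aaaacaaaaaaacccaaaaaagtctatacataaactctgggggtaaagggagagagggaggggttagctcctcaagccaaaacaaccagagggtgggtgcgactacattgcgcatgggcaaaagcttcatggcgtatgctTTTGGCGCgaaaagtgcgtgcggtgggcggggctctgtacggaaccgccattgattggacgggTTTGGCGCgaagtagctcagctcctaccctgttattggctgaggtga
Mcm7, on chr5:138171884-138172133, minus strand: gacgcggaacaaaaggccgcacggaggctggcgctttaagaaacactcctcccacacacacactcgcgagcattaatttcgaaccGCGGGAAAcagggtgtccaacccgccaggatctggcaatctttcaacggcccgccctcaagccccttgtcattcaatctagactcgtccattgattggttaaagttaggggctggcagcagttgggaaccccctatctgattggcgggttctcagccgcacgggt
Mcm5, on chr8:75109259-75109508, plus strand: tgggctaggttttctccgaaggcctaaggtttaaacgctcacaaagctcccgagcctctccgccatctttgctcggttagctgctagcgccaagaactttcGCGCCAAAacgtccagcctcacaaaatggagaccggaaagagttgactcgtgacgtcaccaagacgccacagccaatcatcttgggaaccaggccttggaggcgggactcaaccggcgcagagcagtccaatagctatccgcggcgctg
Cdc6, on chr11:98907901-98908150, plus strand: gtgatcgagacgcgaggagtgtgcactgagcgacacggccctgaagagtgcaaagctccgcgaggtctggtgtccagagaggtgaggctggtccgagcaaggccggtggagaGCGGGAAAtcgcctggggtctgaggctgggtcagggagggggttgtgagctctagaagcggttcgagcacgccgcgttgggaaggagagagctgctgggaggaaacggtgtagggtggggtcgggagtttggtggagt

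Mcm6 held 2 matches, which began 110 and 47 bases before the start, and the others held 1 each, 165 bases before it in Mcm7, 149 in Mcm5 and 138 in Cdc6. The 3 Mcm proteins are subunits of the same helicase, and Cdc6 is a loader of it. Mcm6 stood at 611, 600 and 574 CPM in MB and at 403, 351 and 220 CPM in P1 (log2 0.87, SE 0.21, FDR 0.00406; 0.66, FDR 0.0186 without P1 replicate 3). Cdc6 stood at 75.8, 67.3 and 54.6 CPM in MB and at 43, 39.2 and 25.1 CPM in P1 (log2 0.88, SE 0.21, FDR 0.00322). Neither gene's groups overlapped.

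The same search was made for GACCACCCA, the core letters bound by Gli factors, in the 3 hedgehog lists, and for TCACCCCAC, a sterol response element, in the list of sterol and fatty acid genes. GACCACCCA stood in none of the 23 hedgehog genes with a window and in 0.291% of all genes. TCACCCCAC stood in none of 13 lipid genes with a window and in 0.633% of all genes. These windows cover only the 300 bases around a start.

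Mitosis genes were called in part. Of 28 tested, 9 were called higher (32.1%) and none lower, with a median log2 fold change of 0.49, and 5 without P1 replicate 3, with a median of 0.31. Without MB replicate 2, 5 were called higher as well. Foxm1, a transcription factor for mitotic genes, stood at 319, 451 and 395 CPM in MB and at 173, 133 and 94.3 CPM in P1 (log2 1.54, SE 0.26, FDR 0.000207). Mki67, the gene of the proliferation marker Ki-67, stood at 2790, 2100 and 1540 CPM in MB and at 1110, 1010 and 771 CPM in P1, 2.22-fold higher (log2 SE 0.32, FDR 0.00933; FDR 0.045 without P1 replicate 3, and 0.111 without it and MB replicate 1).

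Other mitotic genes of high level were not called. Top2a, a topoisomerase gene, stood at 1080, 1110 and 876 CPM in MB and at 1050, 951 and 685 CPM in P1 (log2 0.19, SE 0.20, FDR 0.472). Ccnb1, the gene of cyclin B1, stood at 0.07 (FDR 0.814) and Cenpf, a kinetochore gene, at 0.17 (FDR 0.666). As for replication, P1 replicate 3 was the lowest P1 library for all 28 genes. The plot of cell cycle genes shows members of both lists.

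**Figure D3:**
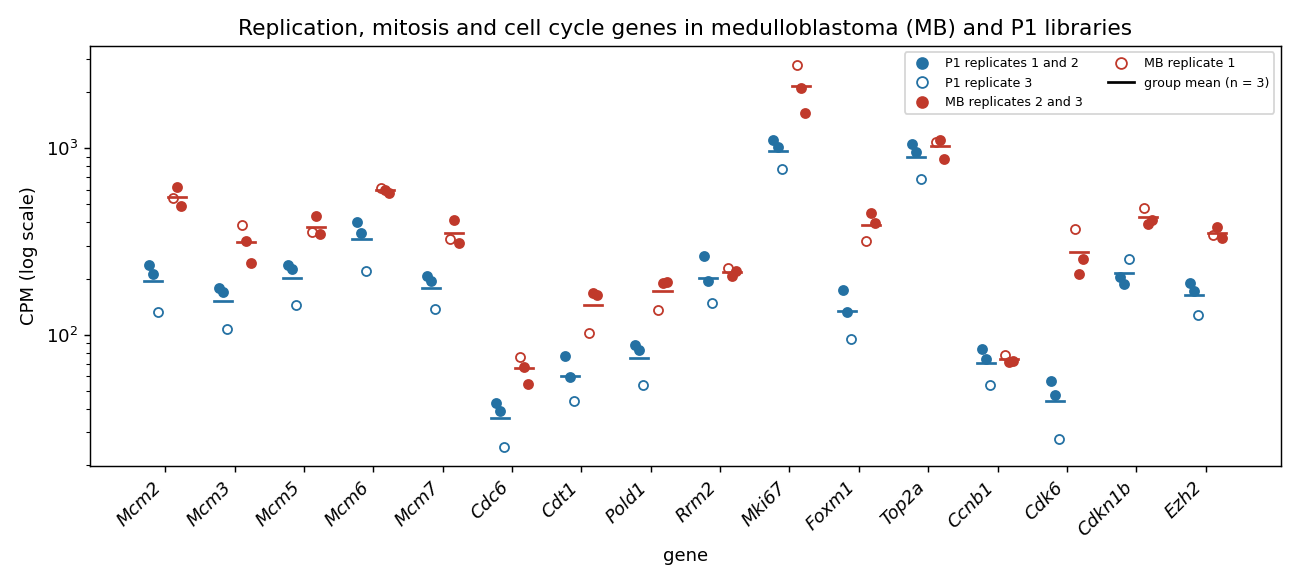
CPM of 16 replication, mitosis, cell cycle and Polycomb genes, on a log axis, in the 3 P1 (blue) and 3 MB (red) libraries, with bars at group means and open symbols for P1 replicate 3 and MB replicate 1. Mcm2 lies between 488 and 616 CPM in MB and between 132 and 237 CPM in P1, while Top2a and Ccnb1 overlap.

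DNA repair and checkpoint genes were called in part. Of 22 tested, 10 were called higher (45.5%) and none lower, and 4 without P1 replicate 3, which was the lowest P1 library for 21 of them. Fancd2, a gene of interstrand crosslink repair, stood at 142, 111 and 104 CPM in MB and at 55.1, 54.6 and 32.5 CPM in P1 (log2 1.33, SE 0.22, FDR 0.000202). Brca1 was called at 0.87 (FDR 0.0127), with FDRs of 0.0652 without P1 replicate 3 and 0.0615 without MB replicate 1. Atr and Atm, the kinases that start the damage response, were not called, at 0.09 and 0.48 on the log2 scale.

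Genes of the p53 response split. Of 22 tested, 6 were called higher (27.3%) and 2 lower (9.09%), and 4 and 2 without P1 replicate 3. Trp53 itself stood at 74.7, 207 and 196 CPM in MB and at 107, 88.3 and 76.2 CPM in P1. MB replicate 1 lay below every P1 library and the other tumours above, and the call at a log2 fold change of 0.82 (FDR 0.0332) was lost without P1 replicate 2 or 3 (FDR 0.0882 and 0.119) and without MB replicate 2 or 3 (0.155 and 0.123). Sesn2, Phlda3 and Bbc3, p53 targets for stress and cell death, rose at 1.90, 1.83 and 1.81 and kept their calls. Mdm2, the negative regulator of p53, was not called at 0.28 (FDR 0.114), and Plk2 fell at -2.08 (FDR 8.7e-06).

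Transcription factors of the granule lineage and the rhombic lip, the zone that makes glutamatergic cerebellar cells, were called in both directions. Of 30 tested, 6 were called higher (20%) and 8 lower (26.7%), shares near those of all genes, and 6 and 7 without P1 replicate 3. Barhl1, an early granule lineage factor, stood at 692, 1120 and 1150 CPM in MB and at 352, 252 and 298 CPM in P1, 3.28-fold higher (log2 SE 0.25, FDR 6.67e-05). Lhx2, a LIM homeobox gene, stood at 35, 74.7 and 60.7 CPM in MB and at 2.02, 1.67 and 2.86 CPM in P1, 26-fold higher (log2 SE 0.58, FDR 1.42e-05). Neurod6, Pbx3 and Insm1 rose as well, at log2 fold changes of 2.08, 1.42 and 1.15. Insm1 (FDR 0.0153) lost its call without P1 replicate 2 (0.0592), MB replicate 2 (0.0618) or MB replicate 3 (0.0643).

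Several factors of later granule cells and of other rhombic lip cells fell. Neurod2, a factor of maturing granule neurons, held 2.5, 2.44 and 11.7 CPM in MB and 168, 118 and 228 CPM in P1, 31.2-fold lower in MB (log2 SE 0.54, FDR 4.15e-06). Eomes (Tbr2), which marks unipolar brush cells, fell from 86, 62.3 and 52.5 CPM to 2.22, 1.2 and 1.12 CPM (log2 -5.48, FDR 3.93e-08). Pax6, which is also in the list of granule neuron precursor markers, fell by 1.27 on the log2 scale (FDR 0.00281). Neurod1 was called at -0.79 (FDR 0.0436), and without P1 replicate 3, its highest library at 953 CPM, the call was lost (-0.48, FDR 0.24), as it was without MB replicate 2 or 3 (FDR 0.164 and 0.134).

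Other factors of the list did not pass the test. Zic1 stood at 1160, 1680 and 1700 CPM in MB and at 1400, 1260 and 1650 CPM in P1 (log2 0.07, FDR 0.803). Meis1, Nfib and Barhl2 were not called either, at 0.05, 0.08 and 0.33. Among Sox factors, 2 of 12 were called higher (16.7%, near the 16.6% of all genes) and 5 lower (41.7%, against 22.7%). The counts were 2 and 4 without P1 replicate 3, and 5 in each direction without MB replicate 1. Sox5 rose at 0.97 (FDR 0.0103), while Sox2, a gene of stem cells and glia, fell at -1.04 (FDR 0.0127; 0.0504 without MB replicate 3). Astroglial markers moved the same way as Sox2, from 3130 to 4760 CPM in P1 to 1690 to 2170 CPM in MB, and their part in it was not tested.

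Genes of granule neuron maturation were lower in MB, and the size of the fall rested in part on P1 replicate 3, which was the highest P1 library for 31 of 36. Of these 36, 22 were called lower (61.1%, against 22.7% of all genes) and none higher, with a median log2 fold change of -1.78. Without that library 17 were called lower and 1 higher, and the median was -1.0. The plot of maturation genes with and without P1 replicate 3 shows how the 17 members named here moved.

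Gabra6, a GABA-A receptor subunit of mature granule neurons, had 1.11, 0.22 and 0.44 CPM in MB and 1.12, 12.5 and 102 CPM in P1 replicates 1 to 3. P1 replicate 1 was at the level of the highest tumour and P1 replicate 3 far above. The fitted log2 fold change was -6.09 (SE 1.28, FDR 0.00205) with that library and -3.60 (FDR 0.00757) without it. Slc17a7, the vesicular glutamate transporter gene, stood at 1.55, 0.977 and 0.64 CPM in MB and at 20.9, 32.3 and 144 CPM in P1, and moved from -5.96 to -4.66 without P1 replicate 3. Grm4, Cbln3 and Chn2 had the same order of P1 libraries. Cbln3 lost its call without P1 replicate 3 (-1.17, FDR 0.11), and so did Calb2, Grin1 and Astn1 (FDR 0.517, 0.0816 and 0.0834). Leaving out MB replicate 1 ended the calls of Calb2 and Astn1 too (FDR 0.127 and 0.0803). So did leaving out MB replicate 2 for Astn1 (0.0736) and MB replicate 3 for Calb2 (0.101). Grin2c, a glutamate receptor subunit gene, rested on the other library: it stood at 45.5, 0.757 and 0.921 CPM in MB and at 23.3, 32.3 and 63.2 CPM in P1, was not called with all libraries (-1.34, FDR 0.297), and was lower without MB replicate 1 (-5.57, FDR 6.72e-07).

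Other maturation genes fell with and without P1 replicate 3. Syt1, a calcium sensor of transmitter release, stood at 9.08, 11.8 and 14.7 CPM in MB and at 222, 141 and 224 CPM in P1, 16.5-fold lower in MB (log2 SE 0.27, FDR 4.06e-08; -3.93 without P1 replicate 3). Gabrb2 and Kcnd2, a receptor subunit and a potassium channel, fell by 3.28 and 2.97 on the log2 scale. Nefl, the neurofilament light chain gene, held 0.238, 0.0489 and 0.12 CPM in MB and 80.9, 58.9 and 59.3 CPM in P1 (log2 -9.02, SE 0.37, FDR 1.44e-09). Nefl and Syt1 are also expressed by Purkinje cells and interneurons, whose marker sums were lower in the same libraries (84.2 to 167 against 256 to 398 CPM, and 5.04 to 8.33 against 176 to 229 CPM).

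Pan-neuronal genes did not pass the test. Map2 stood at 875, 587 and 644 CPM in MB and at 722, 603 and 674 CPM in P1 (log2 0.08, FDR 0.806), and Tubb3 was at 0.03 (FDR 0.958). Rbfox3, the gene of the NeuN antigen, stood at 173, 278 and 290 CPM in MB and at 110, 105 and 343 CPM in P1. It was not called with all libraries (0.41, FDR 0.396) and was called higher in MB without P1 replicate 3 (1.20, FDR 0.00123). Cntn2 (TAG-1), which marks precursors as they leave the cell cycle, stood at 165, 436 and 865 CPM in MB and at 522, 491 and 1420 CPM in P1 and was not called (-0.73, FDR 0.278; -0.05 without P1 replicate 3, and -1.43 with an FDR of 0.0421 without MB replicate 3).

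**Figure D4:**
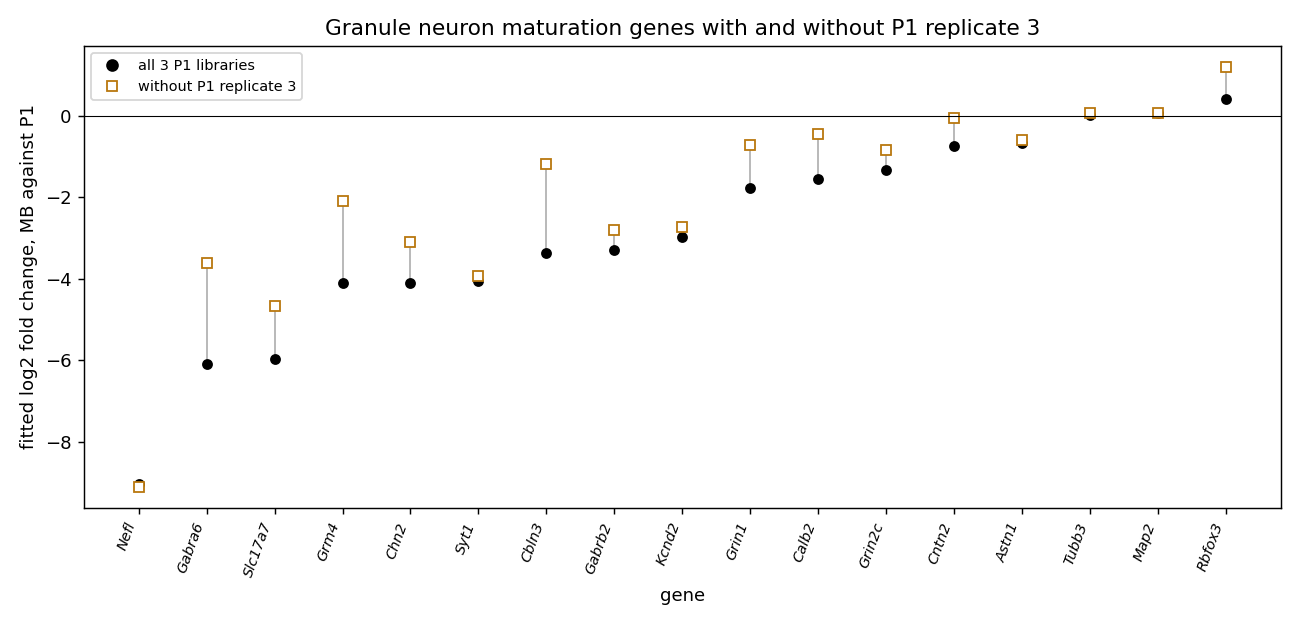
Fitted log2 fold change, MB against P1, of the 17 granule neuron maturation genes named in the text, with all 3 P1 libraries (black circles) and without P1 replicate 3 (open squares). Gabra6 moves from -6.09 to -3.60 and Rbfox3 from 0.41 to 1.20, while Syt1 moves from -4.04 to -3.93.

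Axon guidance and migration genes were mostly lower in MB, with and without P1 replicate 3. Of 31 tested, 19 were called lower in each case (61.3%, against 22.7% of all genes with all libraries), with a median log2 fold change of -1.70. In the other direction, 3 were called higher (9.68%, against 16.6%), or 2 without P1 replicate 3. Unc5c, a netrin receptor needed for granule cell migration, stood at 9, 6.57 and 11.4 CPM in MB and at 490, 338 and 365 CPM in P1, 44.3-fold lower in MB with no overlap (log2 SE 0.30, FDR 9.17e-09). Unc5b fell by 4.32 and Unc5d by 3.53 on the log2 scale. Slit2 and Sema3a, secreted repellents, fell by 4.56 and 4.26.

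In the chemokine axis that holds precursors at the brain surface, the receptor rose and the ligand fell. Cxcr4, the receptor on precursors, stood at 203, 332 and 339 CPM in MB and at 169, 164 and 89.6 CPM in P1 (log2 1.05, SE 0.24, FDR 0.00322; 0.81, FDR 0.0144 without P1 replicate 3). Cxcl12, its ligand made by the meninges, fell from 66.3, 72.2 and 84.1 CPM in P1 to 7.81, 7.52 and 8.93 CPM in MB (log2 -3.20, FDR 9.11e-09). Fibroblast markers fell in the same libraries from at least 704 CPM to at most 37.4 CPM. Epha3, an ephrin receptor gene, rose 3.37-fold (log2 SE 0.17, FDR 1.26e-06), from 64.3, 55 and 54.4 CPM to 178, 179 and 229 CPM.

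Oncofetal genes, which are high in embryos and again in some cancers, mostly fell. Of 9 tested, 7 were called lower (77.8%, against 22.7% of all genes) and 1 higher (11.1%, against 16.6%), with a median log2 fold change of -4.90. The counts were the same without P1 replicate 3. Igf2bp1 (ENSMUSG00000013415, chromosome 11, 95818477 to 95867254), an RNA-binding protein that protects growth-related transcripts, had 0, 0 and 8 counts in the MB libraries, or 0, 0 and 0.32 CPM, against 54.8, 40.4 and 15.6 CPM in P1. The ratio of scaled counts was 412 (95% counting interval 209 to 954; FDR 1.43e-06). Lin28b, which blocks let-7 microRNAs, had 1 count in MB and 704 in P1, a ratio of 848 (152 to 33500). Igf2bp2 and Igf2bp3 and the chromatin gene Hmga2 fell too, and Hmga1 rose at a log2 fold change of 1.05 (FDR 0.000636; 0.21 and FDR 0.53 in the transcript table), with 37.8, 39.9 and 38.5 CPM in MB and 17, 22.8 and 16.4 CPM in P1.

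Levels at the other ages put these falls on a time scale, as a description. Igf2bp1 averaged 91 ± 24.8 CPM (SD, n = 3) at E15.5, 36.9 ± 19.9 CPM at P1, 2.20 ± 1.33 CPM at P7 and 0.475 ± 0.0884 CPM at P14, and 0.107 ± 0.185 CPM in MB. The P1 libraries still held this fetal transcript, and the MB libraries held less than those of any age sampled. Which cells of the P1 fractions held it was not tested.

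Insulin-like growth factor genes were mostly lower in MB. Of 14 tested, 8 were called lower (57.1%, against 22.7% of all genes) and 2 higher (14.3%, against 16.6%), and 7 and 2 without P1 replicate 3. Without P1 replicate 1 or MB replicate 3, 1 was called higher. Igfbp5, a binding protein gene, stood at 63.4, 19.7 and 17.1 CPM in MB and at 808, 580 and 378 CPM in P1 (log2 -4.14, SE 0.51, FDR 1.26e-05). Irs1, the adaptor that carries the receptor's signal, rose at 1.41 (FDR 0.00148), from 134, 125 and 80.3 CPM to 281, 300 and 323 CPM. Igf1r, the receptor gene, was not called at -0.51 (FDR 0.37).

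FGF and other receptor tyrosine kinase genes gave 3 calls higher (12%, against 16.6% of all genes) and 9 lower (36%, against 22.7%) among 25. Without P1 replicate 3 the counts were 1 and 7. Without P1 replicate 1, 1 was called higher. Ntrk3, the receptor gene for neurotrophin-3, stood at 248, 294 and 287 CPM in MB and at 25.9, 28.7 and 44.5 CPM in P1, 8.37-fold higher with no overlap (log2 SE 0.21, FDR 6.94e-08). Ntf3, its ligand gene, fell from 11.2, 8.88 and 16 CPM to 0.238, 0.269 and 0.36 CPM (log2 -5.37, SE 0.32, FDR 1.77e-08). Receptor and ligand thus went in opposite directions. Fgf15, a gene of fetal brain, fell from 30.6, 33.6 and 13.6 CPM to 0, 0.269 and 0.36 CPM (log2 -6.88, FDR 4.48e-06), and Erbb4, Kit and Ntrk2 fell by 1.65, 1.62 and 1.43.

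Notch pathway genes and the Id factors, which hold progenitors back from differentiation, were mostly lower or not called. Of 22 tested, 8 were called lower (36.4%) and 1 higher, with and without P1 replicate 3. MB replicate 1 was the lowest tumour for 20 of them, and without it 5 were called higher and 8 lower. Without MB replicate 2, MB replicate 3 or P1 replicate 2, none was called higher. Notch1 stood at 14.1, 44.1 and 42.3 CPM in MB and at 117, 129 and 105 CPM in P1 (log2 -1.80, SE 0.37, FDR 0.00135), and Notch3, known from pericytes, fell by 3.25. Of the ligands, Jag2 and Dll1 fell by 3.79 and 2.95 and Dll4 rose at 0.84 (FDR 0.0225). Dll4 lost its call without P1 replicate 1 or 2 (FDR 0.0981 and 0.0601) and without MB replicate 2 or 3 (0.0789 and 0.0731). Id4 and Id3 fell by 3.37 and 2.39, and Id2 was not called at 0.45. Hes1, the main Notch effector, was not called at 0.66 (FDR 0.142) and was called without MB replicate 1 (0.98, FDR 0.0131).

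Genes of BMP signals, which oppose hedgehog-driven division in these precursors, were lower in MB among ligands, antagonists and induced inhibitors. Of 31 genes of the BMP and TGF-beta pathways, 16 were called lower (51.6%) and 2 higher (6.45%), and 16 and 3 without P1 replicate 3. The ligand gene Bmp6 stood at 0.198, 0.513 and 0.28 CPM in MB and at 12, 20.1 and 15.4 CPM in P1, 45.2-fold lower in MB (log2 SE 0.41, FDR 1.11e-07). Bmp4 and Bmp7 fell by 4.64 and 2.72. Smad6 and Smad7, inhibitors that BMP signalling itself induces, fell by 3.21 and 2.12. Smad1 and Smad4, the transducers, were not called at 0.21 and 0.15, and Smad3, a TGF-beta transducer, rose 3.04-fold (log2 SE 0.25, FDR 0.000121). Of the antagonists, Nog, Chrd, Grem1 and Fst fell by 2.38, 1.23, 1.67 and 4.60. BMP ligands are also made by meninges and vessels, whose markers fell in the same libraries, and the part of these cells was not tested.

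Wnt pathway genes gave 17 calls lower (47.2%) and 8 higher (22.2%) among 36, and 16 and 7 without P1 replicate 3. Those that rose were the receptors Fzd1, Fzd7, Lrp6 and Lgr5 and the antagonists Sfrp1, Sfrp2, Nkd1 and Rnf43. Fzd1 (0.73, FDR 0.0458) lost its call without P1 replicate 1, 2 or 3 (FDR 0.136, 0.117 and 0.0513) or MB replicate 2 or 3 (0.186 and 0.101), and Lgr5 (0.77, FDR 0.041) without P1 replicate 1 or 2 (0.159 and 0.123) or MB replicate 2 or 3 (0.0572 and 0.188). Rnf43, a membrane protein that removes Wnt receptors, stood at 25.5, 53.5 and 48.6 CPM in MB and at 3.73, 3.02 and 3.24 CPM in P1, 12.8-fold higher (log2 SE 0.49, FDR 3.05e-05). Fzd7, a Wnt receptor gene, rose 4.95-fold (FDR 2.76e-06). Lef1, a nuclear mediator and target of canonical Wnt signals, fell from 12.4, 16.6 and 14.2 CPM to 0.635, 0.44 and 0.801 CPM (log2 -4.54, SE 0.40, FDR 6.28e-07). Axin2, a target in most tissues, fell by 0.67 (FDR 0.0165; 0.0563 without P1 replicate 2 and 0.0515 without MB replicate 1), the ligand genes Wnt5a, Wnt7b and Wnt3 fell by 4.02, 2.45 and 2.11, and Ctnnb1 (beta-catenin) was not called at 0.04. Lef1 is also known from endothelium, whose marker sum fell from at least 434 CPM to at most 43.1 CPM in the same libraries.

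Polycomb genes, which encode the complexes that keep genes silent through histone H3 lysine 27 methylation and H2A ubiquitination, were higher in MB or not called. Of 30 tested, 12 were called higher (40%, against 16.6% of all genes) and none lower, with a median log2 fold change of 0.36, and 9 without P1 replicate 3. Ezh2 (ENSMUSG00000029687, chromosome 6, 47480273 to 47545029), the methyltransferase of PRC2, stood at 343, 377 and 330 CPM in MB and at 189, 171 and 127 CPM in P1, 2.15-fold higher with no overlap (log2 SE 0.19, FDR 0.000238; 0.96, FDR 0.0017 without P1 replicate 3). Its partners Suz12 and Eed were not called, at 0.35 (FDR 0.189) and 0.13 (FDR 0.649). Groups of both partners overlapped.

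Bmi1, a PRC1 subunit that restrains Cdkn2a in many cells, stood at 427, 236 and 222 CPM in MB and at 116, 103 and 123 CPM in P1 (log2 1.37, SE 0.28, FDR 0.00136). Phc1 and Cbx2, other PRC1 subunits, rose at 1.24 and 1.11. Bmi1 and Cdkn2a were therefore both higher in all MB libraries than in any P1 library. Hox genes, known Polycomb targets, held few counts in either group: of 39 in the list, Hoxd4 was not analysed here and 5 had enough counts to test, of which 4 were called lower with and without P1 replicate 3. Hoxb2 had 0 counts in MB and 27 in P1, at least 10.8-fold lower, and Hoxa2, Hoxa3 and Hoxd3 were called lower with at most 6 counts over the MB libraries, Hoxa3 with an FDR of 0.0103 and of 0.0813 without P1 replicate 2.

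Among glycolysis genes, Hk2 rose while most others fell or were not called. Hk2 (ENSMUSG00000000628, chromosome 6, 82675019 to 82724448), the hexokinase that hedgehog signalling induces in granule precursors, stood at 571, 860 and 937 CPM in MB and at 66.1, 47 and 57.8 CPM in P1, 13.9-fold higher (log2 SE 0.41, FDR 4.32e-06). Hk1, a related hexokinase gene, fell from 64, 74.2 and 133 CPM to 18, 33.7 and 32.3 CPM (log2 -1.69, FDR 0.000153). Of 22 genes of the list, 2 were called higher (9.09%, against 16.6% of all genes) and 10 lower (45.5%, against 22.7%). Without P1 replicate 3 the counts were 2 and 9. Slc2a3, a neuronal glucose transporter gene, was the other that rose, at 0.80 (FDR 0.00831), and Slc2a1, the transporter of vessels and glia, fell by 1.99, in the libraries where the endothelial markers fell. Gapdh, which has many near-identical pseudogenes, held 4.63 to 11.5 CPM in these libraries, and its value is uncertain.

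Sterol and fatty acid synthesis genes were mostly lower in MB, and Srebf1 alone in the list was called higher. Of 23 tested, 17 were called lower (73.9%, against 22.7% of all genes) and 1 higher (4.35%, against 16.6%), with a median log2 fold change of -0.99. Without P1 replicate 3 the counts were 16 and 1. Srebf1, the transcription factor of fatty acid synthesis, stood at 970, 1080 and 1260 CPM in MB and at 188, 163 and 128 CPM in P1, 6.91-fold higher (log2 SE 0.24, FDR 4.14e-07). Fasn and Acaca, the fatty acid synthesis enzymes under Srebf1, were not called, at log2 fold changes of 0.10 and 0.20. The 10 sterol synthesis enzymes of the list that were tested all fell, Lss by 0.76 on the log2 scale. P1 replicate 3 was the highest P1 library for 19 of the 23 genes.

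Primary cilium genes encode the organelle where hedgehog signals are read. Of 28 tested, 4 were called higher (14.3%, near the 16.6% of all genes) and 1 lower (3.57%, against 22.7%), and 1 and 1 without P1 replicate 3. Without P1 replicate 1, 1 was called higher, and without MB replicate 2 or 3, 2 were. No member was called lower without P1 replicate 2 or MB replicate 1. Immediate early genes, which respond to activity and to handling of cells, gave 2 calls higher (9.09%) and none lower among 22, with and without P1 replicate 3. They gave 4 calls higher without MB replicate 1, which was the lowest tumour for all 22. Without MB replicate 2, 1 was called higher and 4 lower. P1 replicate 3 was the highest P1 library for 20 of them. Fos stood lowest of the 6 libraries in MB replicate 1, at 25.9 CPM against 373 and 220 CPM in the other tumours and 345, 523 and 711 CPM in P1. Fosl2 rose 6.17-fold (FDR 0.000308). Interferon response and antigen presentation genes gave 4 calls higher (21.1%) and 2 lower (10.5%) among 19. The counts were 5 and 1 without P1 replicate 3, and 1 and 4 without MB replicate 1. Between 1 and 4 were called higher when any other 1 library was left out, and 1 or 2 lower. Ifit2 rose at a log2 fold change of 1.70 (FDR 0.000197), beside microglial marker sums of 107 to 178 CPM in P1 and 222 to 594 CPM in MB.

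**Figure D5:**
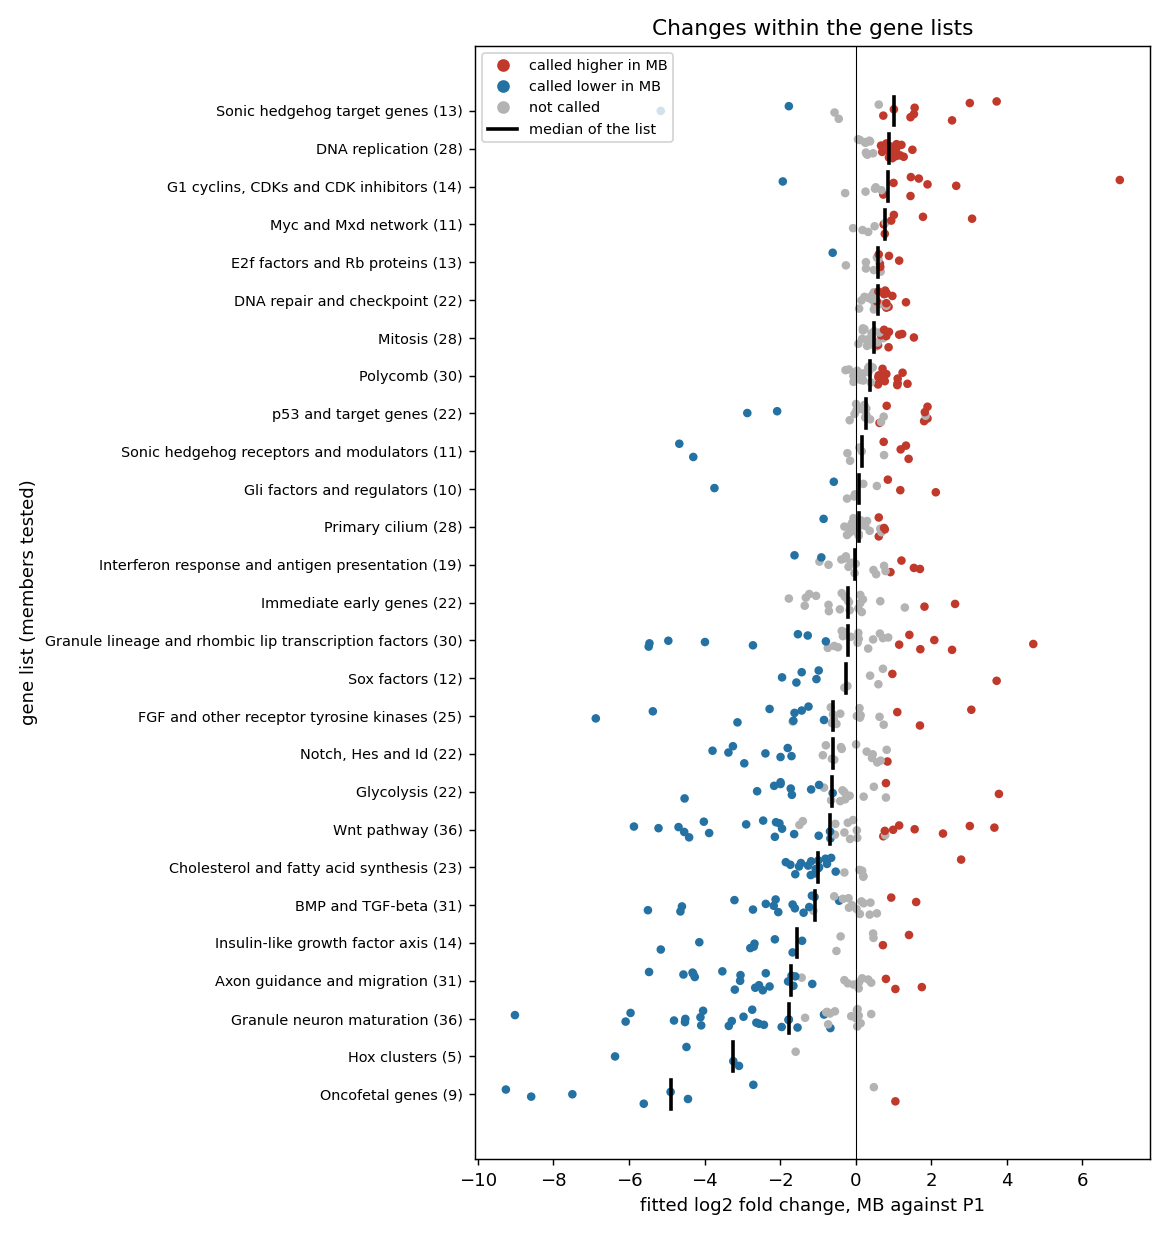
Fitted log2 fold change, MB against P1, of every tested member of 27 gene lists, sorted by the median of the list (black bar), with members called higher in red, called lower in blue and not called in grey. Hedgehog target and replication genes lie highest, with medians of 1.01 and 0.87, and oncofetal genes lowest, with a median of -4.90.

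The largest rises over all autosomal genes were taken among genes called with all libraries, without P1 replicate 3 and without MB replicate 1, at a mean of at least 5 CPM and with no overlap between groups. Prm1 (ENSMUSG00000022501, chromosome 16, 10796419 to 10796979), which encodes the sperm protamine 1, stood at 51.2, 39.3 and 41.8 CPM in MB and at 0, 0.155 and 0.113 CPM in P1. The ratio of its counts, 3945 against 7, was 468 (95% counting interval 227 to 1160; FDR 3.12e-08), and no library of the other groups passed 0.155 CPM. The other genes of sperm chromatin, which were looked up after this value was seen, did not follow: Prm2, Prm3 and Tnp2 on the same chromosome and Tnp1 had 0 counts in all 3 MB libraries.

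Sema3e, a secreted guidance cue, rose from 1.93, 2.25 and 2.68 CPM to 229, 196 and 198 CPM, 90.6-fold (log2 SE 0.23, FDR 2.65e-10). Olig3, a rhombic lip transcription factor, rose 43.4-fold, from 1.76, 1.9 and 2.49 CPM to 88.4, 44.2 and 135 CPM (FDR 1.82e-07). Th, which encodes tyrosine hydroxylase, rose 114-fold to 12.1, 20.6 and 18.1 CPM. Both of these were also found at E15.5, Olig3 at 25.9 ± 0.342 CPM and Th at 9.56 ± 3.16 CPM (SD, n = 3).

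Lcn2 and Gpnmb, genes known from inflammation and phagocytes, rose 217-fold and 107-fold, in libraries where microglial markers also rose. Gpnmb stood at 130, 83.1 and 80.7 CPM in MB and at 0.257, 1.24 and 1.21 CPM in P1. Fcgbp, an Fc-binding protein gene, and Cdkn2a, described above, were also among these. The rises of 3 more rested on MB replicate 1 for their size. Tecta, a gene of the inner ear matrix, stood at 899 CPM there and at 31.1 and 43.5 CPM in the other tumours, and its log2 fold change of 8.74 became 5.62 without that library. Krt12 went from 7.04 to 3.27 and Etnppl from 5.68 to 2.52.

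The largest falls included genes of inhibitory cerebellar neurons. Pax2 (ENSMUSG00000004231, chromosome 19, 44830539 to 44912758), which marks interneuron precursors, had 1 count over the MB libraries and 70.3, 46.8 and 30.2 CPM in P1. The ratio of scaled counts was 4390 (95% counting interval 788 to 174000; FDR 3.77e-08), and 5280 without P1 replicate 3. Tfap2b, a factor of the same lineage, had 4 counts in MB and 6018 in P1, a ratio of 1810 (708 to 6650). Lhx5, a factor of the Purkinje cell lineage, and Neurog2, a proneural factor, had 10 and 2 counts in MB, with ratios of 400 (217 to 834) and 595 (164 to 4920). Calb1, the calbindin gene of Purkinje cells, held 0.159, 0.244 and 0.16 CPM in MB and 48.8, 99.4 and 88.8 CPM in P1.

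Nphs1 and Kirrel2, neighbouring genes on chromosome 7 that encode adhesion proteins, fell together, with 1 and 10 counts in MB and 1600 and 3666 in P1. Slc22a6 and Msx2, an organic anion transporter and a homeobox gene, had 2 and 3 counts in MB against 1044 and 918 in P1. Optc, an extracellular matrix gene, had 1 count against 1294. Nefl and Igf2bp1, described above, completed the 12. The part that the GABAergic interneurons, Purkinje cells and vessels of the P1 fractions have in these falls was not tested.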

How the data were processed

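Poly(A) RNA from Percoll fractions of mouse cerebellum or tumour was sequenced in 15 libraries. The deposited files used here hold raw read counts per gene, and per transcript as an alternative. Per the submitters' processing notes, Trimmomatic, TopHat, StringTie and HTSeq were used with mm9. The strand setting of the counting is not given in the sources used here, so reads of overlapping and antisense genes cannot be told apart. The 5 summary lines of each table were left out. In the 6 libraries, 39.5 to 50.0% of records lay in genes and 25.7 to 44.6% had several alignments.

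Counts of all 15 libraries were filtered (filterByExpr, minimum count 10, minimum total 15), TMM-normalized and fitted with edgeR 4.0.16 (R 4.3.3), with 1 mean per group and 10 residual degrees of freedom. All edgeR p-values come from its quasi-likelihood test with Benjamini-Hochberg adjustment over 15259 genes. CPM were computed on TMM-scaled library sizes. Ratios with under 11 counts in a group carry 95% exact intervals, and a count of 0 is set at a floor of 3 counts over the group. Intervals and floors cover counting error only. The steps were tested on simulated data.

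Genes were named by these rules: the 12 largest changes each way that held without P1 replicate 3 and without MB replicate 1, up to 6 called members each way and up to 3 not called in each list, 24 preset genes, and the markers of highest level. Other members were named after their values were seen. Members and lists were chosen with earlier results of these data known. Alternatives were DESeq2 1.42.0, its size factors, no filter, other sets of libraries or genes, the transcript table, a replicate block and each library left out. A few genes are not reported here.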

Additional observations from a re-analysis of the deposited data

How the results depend on the processing

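Counts of genes called with all libraries, 2391 higher and 3276 lower, stayed within 1.5 times in all but 2 of 15 alternatives. The 6 libraries alone gave 1538 higher and 2422 lower, and the libraries of 1 counting set, which lack MB replicate 1, gave 3747 higher and 4011 lower. Both use fewer libraries, but their counts moved in opposite directions, and the cause was not tested. Leaving out 1 library gave 1689 to 2667 higher and 2850 to 3516 lower. Leaving out P1 replicate 3 and MB replicate 1 together, chosen after seeing the data, gave 2272 and 3159. Same-numbered libraries did not pair (correlations of their deviations -0.0741, 0.0303 and -0.0138), and the replicate block gave 2131 and 3194.

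Of 208 genes named, 170 were called, 142 of these in every alternative that tested them, and none reversed. The largest changes were named only if they held without P1 replicate 3 and without MB replicate 1. Other members were often named because they were called. These counts therefore do not measure how stable calls are in general. The 6 libraries alone ended 19 calls, among them those of Ccnd1 (FDR 0.0536), Slc2a3 (0.0536) and Sfrp2 (0.0504), and the transcript table ended 2, those of Hmga1 (0.53) and Neurod1 (just above the threshold). Some genes not called changed sign in some alternatives, and the cause was not tested. Not all of these lay near 0: Cntn2 stood at -0.73 with all libraries and at 0.36 without P1 replicate 3 and MB replicate 1. With 1 library left out, log2 fold changes ran from -0.14 to 0.35 for Acaca, -0.21 to 0.24 for Atr, -0.10 to 0.21 for Ccnb1, -0.02 to 0.27 for Cenpf, -1.43 to -0.05 for Cntn2, -0.09 to 0.13 for Ctnnb1, 0.03 to 0.23 for Eed, -0.02 to 0.66 for Id2, -0.11 to 0.19 for Map2, -0.11 to 0.15 for Meis1, -0.10 to 0.25 for Nfib, -0.03 to 0.31 for Ptch1, 0.14 to 0.54 for Rrm1, -0.07 to 0.35 for Rrm2, 0.03 to 0.32 for Top2a, -0.22 to 0.42 (0.47 with both P1 replicate 3 and MB replicate 1 out) for Tubb3, -0.13 to 0.27 for Tyms and -0.02 to 0.24 for Zic1. In 1 counting set, Acaca stood at -0.13, Atr at -0.20, Cenpf at -0.01, Id2 at -0.01, Map2 at -0.10 and Meis1 at -0.09. Without both P1 replicate 3 and MB replicate 1, Acaca stood at -0.14, Atr at -0.31, Ccnb1 at -0.14, Cenpf at -0.18, Cntn2 at 0.36, Ctnnb1 at -0.14, Eed at -0.06, Map2 at -0.10, Meis1 at -0.15, Rrm1 at -0.03, Rrm2 at -0.11 and Top2a at -0.01. With the replicate block, Tubb3 stood at -0.06. Genes with few counts in MB have wide intervals at this depth.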

Other observations

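Ddc, which encodes the enzyme after tyrosine hydroxylase in dopamine synthesis, was looked up after the value of Th was seen. It did not go with Th. Ddc stood at 0.119 to 0.28 CPM in MB and at 1.63 to 6.18 CPM in P1, while Th stood at 12.1 to 20.6 CPM in MB and at 0.0858 to 0.188 CPM in P1. At E15.5 the order was as in MB, with Th at 6.1 to 12.3 CPM and Ddc at 0.262 to 0.551 CPM. At P14 Ddc stood at 8.23 to 10.2 CPM and Th at 0.181 to 0.401 CPM.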
